A study of Arabidopsis thaliana with 20 samples.

Results

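The transcripts described here were high after 12 h in the cold and back near their starting level after 36 h. They were chosen on the deposited array values: a probe set had to lie at least 1 log2 unit (2-fold) above the 22 °C array on the array of cells held 12 h at 4 °C, and at most 0.5 log2 units above it on the array of cells held 36 h at 4 °C, all without cordycepin. It also had to reach, on at least 2 of the 20 arrays, an intensity limit set at the median of all deposited values, 61.39, rounded to 1 decimal. Of 22810 probe sets, 12801 passed that intensity limit with array controls left out, and 146 of these (1.14%) met both differences. They made up 13.1% of the 1118 tested probe sets that stood at least 1 above 22 °C at 12 h, and 8.73% of all tested probe sets met that difference. Another 40 probe sets met both differences but not the intensity limit. Of the 146, 79 carry exactly 1 gene in the platform annotation, all of them distinct and all matched in the TAIR10.1 annotation, and 67 are unnamed there.

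T87 is a suspension culture of the Columbia accession of Arabidopsis thaliana, and all 20 arrays (Affymetrix ATH1) were hybridised with its RNA. Cells of the 22 °C series grew at 22 °C in light of 80 µmol per square metre and second and were sampled 0, 0.5, 2 and 4 h after addition of cordycepin. Cells of the 4 cold series were moved to 4 °C and dim light of 40 µmol per square metre and second for 6, 12, 24 or 36 h and then sampled 0, 4, 8 and 12 h after cordycepin was added, still in the cold. Each condition is 1 array with no replicates, so an array-to-array difference carries no test, and the tests below measure scatter between arrays rather than between cultures. Cold, dim light and time in culture changed together and cannot be told apart. The 6 h series is given by the sample titles and the design text, whereas the growth protocol lists 12, 24 and 36 h only. In bulk RNA, fewer cells of a type and less RNA per cell cannot be told apart. Of 16 markers fixed to check the cell type, the platform annotation names 1, the root hair expansin gene EXPA7, whose intensity of 13.0 to 22.2 stayed below the limit on every array.

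Plants moved into the cold first switch on transcription factors and signalling genes for a short time, and effector genes such as the COR genes, whose products protect membranes and proteins, follow and stay on. The amount of a transcript at any time depends on how fast it is made and how fast it is degraded, and short-lived transcripts can come and go quickly. Cordycepin resembles adenosine and stops RNA chains once it is built in, so a transcript's loss after its addition is read as decay. The arrays were normalised to one another, so a slope compares a transcript with the rest of its array, and a positive slope means only that its signal went up relative to the rest.

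Before cordycepin, the 146 probe sets lay a median of 0.11 log2 units above 22 °C at 6 h, 1.30 at 12 h, 0.64 at 24 h and 0.23 at 36 h. The values at 12 h and 36 h chose the members and are a description. At 12 h they ran from 1.00 to 4.07, and at 36 h 42 members lay below 22 °C. Of these, 5 lay at least 1 below it, beside 3.2% of all tested probe sets. At 6 h 18 members (12.3%) stood at least 1 above 22 °C, beside 3.57% of all tested, and at 24 h 31 members (21.2%) did, beside 9.96%. These differences share the 22 °C array that the rule used. The 24 h array minus the 6 h array uses no array of either difference in the rule, though both arrays counted for the intensity limit. Its median over members was 0.46. At least 1 higher at 24 h were 38 members, beside 9.05% of all tested, and 9 were at least 1 lower, beside 5.27%. Of the other 972 probe sets that stood at least 1 above 22 °C at 12 h, 51.4% were at least 1 higher at 24 h than at 6 h and 11.9% at least 1 lower. At 6 h, 96 members were within 0.5 of 22 °C, a count that shares the 22 °C array as well. The share of all tested within 0.5 was not counted. At 6 h the quartiles were −0.19 and 0.59 for the members and −0.22 and 0.14 for all tested, so closeness to 22 °C then was not particular to the members. Among the 5 arrays without cordycepin, 128 members were highest at 12 h, 11 at 24 h and 7 at 6 h. The rule keeps the 22 °C and 36 h arrays from being highest and favours the 12 h array, so these counts only describe the members. With the arrays centred on reference genes instead, the members' medians became 1.54 at 12 h, 1.01 at 24 h and 0.66 at 36 h, so how close the members came to the 22 °C level at 36 h depends on the scaling.

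**Figure D1:**
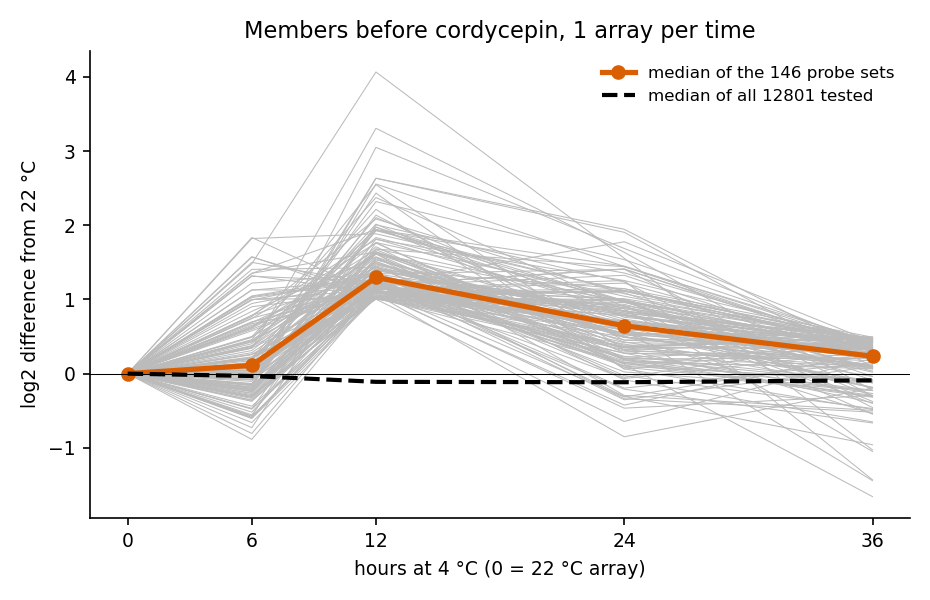
Log2 difference from the 22 °C array (y axis) of each of the 146 probe sets (grey lines) on the arrays without cordycepin, against hours at 4 °C (x axis), with the medians of the members (orange) and of all 12801 tested probe sets (dashed). The members' median goes from 0.11 at 6 h to 1.30 at 12 h and 0.23 at 36 h, and the 12 h and 36 h points were used to choose the members.

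At least 1 above 22 °C at 6 h but not at 24 h were 15 members, at 24 h but not at 6 h were 28, at both 3 and at neither 100. The 100 had a median of 0.54 above 22 °C at 24 h, and 36 of all members lay within 0.5 of 22 °C at both 6 h and 24 h. All of these counts share the 22 °C array that the rule used, and the matching shares of all tested were not counted. The quartiles of all tested were −0.22 and 0.14 at 6 h and −0.45 and 0.34 at 24 h. Among named members, the 12 h peak was narrowest, by the distance of the 12 h array above the higher of its neighbours, for AT5G19120, AT2G33710, AT3G17120, AT1G52470, AT1G28190 and AT1G02660. It was least apparent for AT4G33660, AT1G53340, AT3G54000, AT4G13180, SUFE2 and AT5G06700, in which the 6 h or 24 h array stood above or beside the 12 h array. AT4G33660, a small cysteine-rich transmembrane protein gene, had log2 intensities of 7.10 at 22 °C and 8.94, 8.17, 6.25 and 6.91 at 6, 12, 24 and 36 h of cold, and so was highest at 6 h and below its 22 °C level at 24 h. AT1G53340 had 4.75 at 22 °C and 4.54, 5.96, 6.53 and 5.18 in the cold, and was highest at 24 h.

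Values close to the limits show how narrowly some members entered. Among named probe sets, TIC (1.00) and AT3G49350 (1.01) were just inside the 12 h limit, and AT3G13430 (0.99) and AT3G29240 (0.99) just outside it. AT5G46910 (0.49) was just inside the 36 h limit, and AT1G06050 (0.50, unrounded above the limit) and UGT76B1 (0.51) just outside. By intensity on the second brightest array, AT2G33710 (61.5), AT1G07590 (62.2) and AT1G28190 (65.3) just entered and AT3G04210 (55.9) did not. The same rule applied to the arrays with 4 h of cordycepin chose 32 probe sets, of which 10 were shared, 6.85% of the 146 and 31.3% of the 32.

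The largest 12 h differences were those of unnamed probe sets. The first was 16.7-fold higher at 12 h than at 22 °C (log2 difference 4.07), with log2 intensities of 6.45 at 22 °C and 7.93, 10.51, 8.00 and 5.42 at 6, 12, 24 and 36 h. With cordycepin it stood at 10.38, 9.85 and 10.68 for the 6 h series and at 5.90, 6.66 and 7.18 for the 36 h series. The 6 h series was above the 36 h series at each hour of cordycepin, and before it as well. The second, also unnamed, was 9.90-fold higher at 12 h (log2 difference 3.31), and after 0.5 h of cordycepin at 22 °C it went from 7.09 to 3.37.

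AT5G19120, of the aspartyl protease family, had the third largest difference among named members, 5.40-fold. Its log2 intensity was 7.58 at 22 °C and 7.57, 10.01, 7.64 and 7.10 at 6, 12, 24 and 36 h of cold. After 0.5, 2 and 4 h of cordycepin at 22 °C it stood at 5.07, 5.0 and 5.91. The 12 h array alone was high, and at 22 °C most of the signal was gone on the first array with cordycepin. After 4, 8 and 12 h of cordycepin the 6 h series stood at 8.67, 8.02 and 8.20, above its own level before cordycepin, and the 12 h series at 7.96, 7.05 and 5.42. The 24 h series stood at 7.14, 6.67 and 6.15 and the 36 h series at 6.84, 6.53 and 6.23, so the series overlapped except that the 6 h series lay above the others on all 3 arrays.

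AT1G67600 was 6.21-fold and AT5G54300 5.88-fold higher at 12 h, the widest differences among named members. AT1G67600 had log2 intensities of 4.62 at 22 °C and 4.54, 7.26, 6.57 and 4.85 in the cold, and AT5G54300 had 4.64 and 4.46, 7.19, 6.08 and 4.97. Both were at their 22 °C level at 6 h and still above it at 24 h. AT1G72070, which encodes a DnaJ-domain protein of the co-chaperone type, was 4.99-fold higher and followed the same order, with 6.08 at 22 °C and 6.15, 8.39, 7.61 and 6.49 in the cold. AT1G28190 was 5.18-fold higher, with 5.08 at 22 °C and 5.57, 7.45, 5.98 and 5.27.

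To ask whether these differences held on arrays that neither difference of the rule used, the 12 cold arrays with cordycepin were fitted with limma. Series and hour of cordycepin were the terms (6 residual degrees of freedom, Benjamini-Hochberg adjustment over all 12801 probe sets, threshold 0.05). The intensity limit was read on all 20 arrays, so these arrays could help a dim probe set to enter. It is not stated whether these arrays came from the same flasks as those without cordycepin. The 12 h series was higher than the 36 h series for 52 members (35.6%), beside 11.1% of all tested, and lower for 1, beside 8.39%. The median difference was 0.29 log2 units against 0.02 over all tested. Of the other 972 probe sets that stood at least 1 above 22 °C at 12 h, 176 (18.1%) were higher. All 3 arrays of the 12 h series lay above all 3 of the 36 h series for 36 members (24.7%), beside 17.6% of all tested.

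The later arrays did not place the highest level in the 12 h series. They compare series at equal hours of cordycepin and not at equal time in the cold. The 6 h series had by then spent 10, 14 and 18 h at 4 °C and the 12 h series 16, 20 and 24 h. The 12 h series was lower than the 6 h series for 67 members, beside 17.8% of all tested, and higher for 17, beside 16.9%, with a median difference of −0.34. Without the 12 h array of the 12 h series the first count was 37, beside 10.4% of all tested. The second was 8 without the 4 h array of the 6 h series, beside 14.5%. It was also 8 without the 4 h or the 8 h array of the 12 h series, beside 14.0% and 10.6%. The 6 h series was higher than the 36 h series for 99 members (67.8%), beside 28.1% of all tested, and lower for 3, beside 23.0%, with a median difference of 0.61. All 3 arrays of the 6 h series lay above those of the 36 h series for 76 members (52.1%), beside 25.7% of all tested. Both the 6 h and the 12 h series were higher than the 36 h series for 40 members, beside 7.93% of all tested, and for 59 the 6 h series passed and the 12 h series did not, beside 20.2%. The 12 h series was higher than each of the other 3 series for 9 members, beside 1.16% of all tested.

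Against the 24 h series, the 12 h series was higher for 51 members, beside 10.1% of all tested, and lower for 6, beside 8.91%, with a median of 0.21. Without the 4 h array of the 12 h series 29 were higher, beside 3.99% of all tested. The count was 33 without the 12 h array of the 24 h series, beside 3.05%. Without the 4 h and the 12 h array of the 6 h series, 12 and 16 were lower, beside 9.88% and 10.4%. The lower count was 3 without the 4 h or the 12 h array of the 12 h series, beside 3.95% and 3.82%. It was also 3 without the 4 h array of the 24 h series, beside 4.34%, and 1 without its 12 h array, beside 3.22%. With 1 slope per series it was 23, beside 10.6%. The 24 h series was higher than the 36 h series for 16 members, beside 2.53% of all tested, and lower for 3, beside 2.65%. Without the 4 h and the 12 h array of the 6 h series the lower count was 8 and 6, beside 3.23% and 3.26%. It was 5 without the 12 h array of the 12 h series, beside 2.34%. It was 12 without the 8 h array of the 24 h series, beside 4.91%. Without the 4 h and the 8 h array of the 36 h series it was 1 and 6, beside 1.08% and 1.59%. With 1 slope per series it was 9, beside 3.87%. The higher count was 25 without the 4 h or the 12 h array of the 6 h series, beside 3.70% and 3.59%. It was 7 without the 4 h or the 12 h array of the 24 h series, beside 0.61% and 0.59%. Without the 4, 8 and 12 h arrays of the 36 h series it was 8, 9 and 7, beside 0.89%, 0.85% and 0.37%. Relative to the 36 h series, the order of the members' medians was thus 6 h, 12 h and 24 h.

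**Figure D2:**
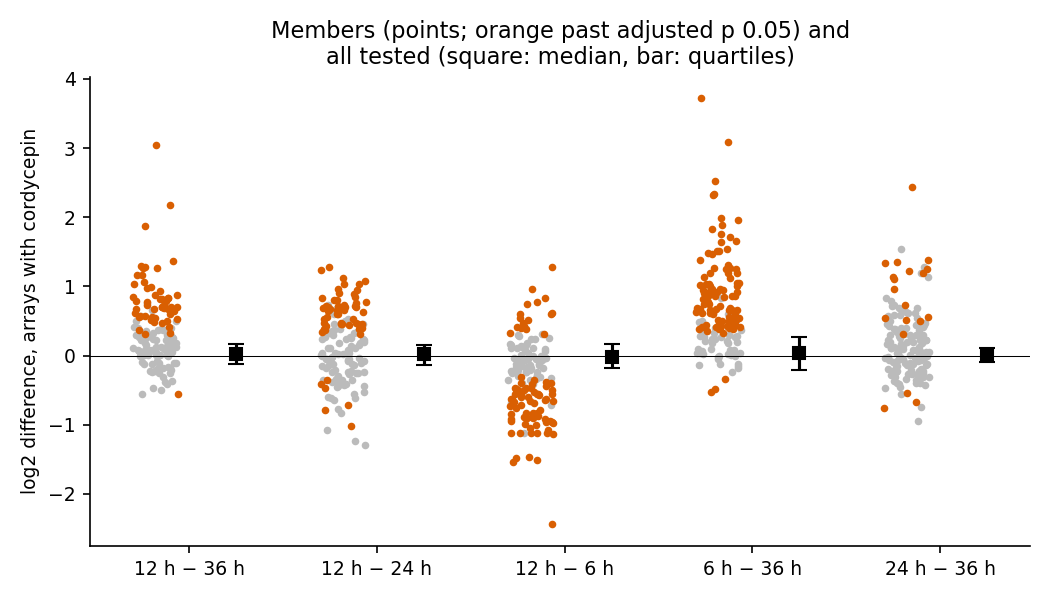
Log2 difference between cold series on the arrays with cordycepin (y axis) for 5 pairs of series (x axis). Points are the 146 members, orange where the limma adjusted p was under 0.05, and squares with bars are the median and quartiles of all tested probe sets; the 6 h series lies above the 36 h series for 99 members, and the 12 h series below the 6 h series for 67.

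Of the members called higher in the 12 h than in the 36 h series, AT1G52470 had the largest difference among named genes. AT1G52470 encodes an alpha/beta hydrolase, and its log2 intensity was 9.80 at 22 °C and 9.54, 11.10, 9.49 and 8.84 at 6, 12, 24 and 36 h of cold. With 4, 8 and 12 h of cordycepin it was 9.77, 10.13 and 10.56 for the 6 h series, 9.62, 9.49 and 8.51 for the 12 h series and 8.29, 7.67 and 7.55 for the 36 h series. The 12 h and 36 h series did not overlap, and the difference was 1.37 ± 0.28 (SE; limma adjusted p = 0.00665). The 6 h series was higher again, by 0.95 ± 0.28 (adjusted p = 0.0222 for 12 h minus 6 h). That step did not pass without the 8 h or the 12 h array of the 6 h series (−0.99 and −0.52), without the 12 h array of the 12 h series (−0.64) or with reference-gene centring (−0.90).

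AT5G55050, a GDSL-type lipase gene, was an early member. It had 7.23 at 22 °C and 8.63, 8.66, 7.42 and 7.0 at 6, 12, 24 and 36 h of cold. With cordycepin it stood at 8.56, 8.71 and 8.97 for the 6 h series, 8.17, 7.96 and 7.63 for the 12 h series, 7.09, 7.15 and 6.62 for the 24 h series and 6.89, 6.70 and 6.67 for the 36 h series. The 4 series kept this order, with the exception that the 24 h and 36 h series overlapped, and the 12 h series exceeded the 36 h series by 1.16 ± 0.15 (limma adjusted p = 0.000687). AT3G06150 had 7.16 at 22 °C and 6.56, 8.27, 8.25 and 7.12 in the cold, and its 12 h series exceeded both the 36 h series, by 1.07 ± 0.14 (limma adjusted p = 0.000743), and the 6 h series, by 0.62 ± 0.14 (adjusted p = 0.00808).

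Among cell wall genes, a group drawn up from background knowledge after the values had been seen, all 3 members were higher in the 12 h than in the 36 h series, beside the 11.1% of all tested given above. The cell wall list, searched by gene name, has 17 tested genes and no member, and 6 of its genes were higher and 3 lower in that comparison. AT5G06700 is TRICHOME BIREFRINGENCE, which acts in the acetylation of wall polysaccharides and in secondary wall cellulose. It had 7.80 at 22 °C and 7.50, 8.82, 8.92 and 8.27 at 6, 12, 24 and 36 h of cold, so it was as high at 24 h as at 12 h. With cordycepin the 12 h series held 8.92, 8.92 and 8.68, above all 3 arrays of the 36 h series (8.21, 8.07 and 7.81), a difference of 0.81 ± 0.09 (SE; limma adjusted p = 0.000163). GAUT15, a galacturonosyltransferase of the family that builds pectin, had 7.25 at 22 °C and 6.81, 8.30, 8.14 and 7.28 in the cold, and its difference was 0.77 ± 0.14 (adjusted p = 0.00348). AT3G06750, a hydroxyproline-rich glycoprotein gene, had 7.41 and 8.25, 8.98, 7.84 and 7.31, and its difference was 0.94 ± 0.14 (adjusted p = 0.0016). AT3G06750 was early, with 9.08, 8.85 and 9.20 for the 6 h series after cordycepin against 7.43, 7.42 and 7.32 for the 36 h series, whereas the other two were below their 22 °C level at 6 h.

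AT5G42830 encodes an acyltransferase of the BAHD type, enzymes that acylate secondary metabolites. It stood at 7.05 at 22 °C and 6.82, 8.36, 7.56 and 6.51 in the cold, and with cordycepin at 7.89, 7.77 and 7.23 for the 12 h series against 6.77, 6.88 and 6.74 for the 6 h series, 6.86, 6.38 and 5.83 for the 24 h series and 6.70, 6.87 and 6.71 for the 36 h series. All 3 arrays of the 12 h series lay above those of the other cold series, and the difference was 0.87 ± 0.17 from the 36 h series (limma adjusted p = 0.00507) and 0.83 ± 0.17 from the 6 h series (adjusted p = 0.00383).

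AT1G06450 encodes a protein of the CAF1 family of deadenylases, which shorten the poly(A) tail of mRNAs. It had 8.38 at 22 °C and 10.21, 10.27, 9.51 and 8.73 at 6, 12, 24 and 36 h of cold, and was thus up from 6 h on. With cordycepin it was 10.33, 10.22 and 9.82 for the 6 h series, 10.13, 9.82 and 9.24 for the 12 h series, 9.16, 8.80 and 8.02 for the 24 h series and 9.22, 8.87 and 8.47 for the 36 h series. The 6 h and 12 h series lay above the 36 h series on every array, by 0.88 ± 0.10 for 12 h (limma adjusted p = 0.000248). AT1G06440, which neighbours AT1G06450 in the TAIR10.1 annotation, had 6.03 at 22 °C and 7.02, 7.37, 6.57 and 6.25, with a difference of 0.82 ± 0.12 (adjusted p = 0.00103). No other pair of the 79 named members lies side by side there, and the 67 unnamed members could not be placed.

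The single member that was lower in the 12 h than in the 36 h series was AT2G20142, a TIR-domain gene of the type found in immune receptors. It had 5.17 at 22 °C and 5.83, 6.29, 5.53 and 5.66 in the cold, and with cordycepin 5.42, 5.62 and 5.28 for the 12 h series against 6.16, 5.96 and 5.88 for the 36 h series, a difference of −0.56 ± 0.12 (limma adjusted p = 0.00879). Without the 4 h array of the 12 h series the difference was −0.47 and did not pass.

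The ubiquitin ligase list was the list with the most members, 2 of its 33 tested genes, PUB22 and PUB23, and 1 of 8 membrane transport genes, OCT4, was a member. The other lists had none, but the platform annotation gives more than clone names for only 533 tested genes, so the lists cover few genes. PUB22 and PUB23 are U-box ubiquitin ligases that dampen immune and drought responses by marking target proteins for degradation. PUB23 had log2 intensities of 9.14 at 22 °C and 9.26, 10.37, 9.38 and 9.05 at 6, 12, 24 and 36 h of cold. After 0.5, 2 and 4 h of cordycepin at 22 °C it stood at 6.93, 6.53 and 6.12. In the cold it stood at 9.33, 8.53 and 8.06 for the 6 h series, 9.43, 8.59 and 8.01 for the 12 h series, 8.59, 8.01 and 7.34 for the 24 h series and 9.41, 8.00 and 7.72 for the 36 h series. All 4 cold series were lower at 8 h than at 4 h and lower again at 12 h, and they largely overlapped. The 12 h minus 36 h difference, 0.30 ± 0.12, did not pass (limma adjusted p = 0.106), and the mean cold slope did, at −0.18 ± 0.02 log2 units per h (adjusted p = 8.61e-05). PUB22 had 8.11 at 22 °C and 8.68, 9.31, 8.69 and 8.20 in the cold. Its 12 h minus 36 h difference of 0.32 ± 0.10 passed narrowly (limma adjusted p = 0.0452) and no longer with any 1 of 7 arrays left out (0.24 to 0.38), with no filter on intensity, with 1 slope per series or with reference-gene centring (0.19). Its mean cold slope was −0.11 ± 0.02 (adjusted p = 0.00223), and −0.09, which did not pass, without the 4 h array of the 6 h or of the 36 h series.

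Counting from background knowledge, after the values had been seen, 6 members encode ubiquitin ligases or ligase subunits, among them the U-box genes AT1G23030 and AT3G49810, the RING gene AT5G55970 and the F-box gene AT1G70590. The 12 h series was higher than the 36 h series for 2 of the 6, beside 11.1% of all tested. The 6 h series was higher than the 36 h series for 5, beside 28.1%. With reference-gene centring these counts were 1 and 3, beside 3.48% and 10.5%. AT1G23030 had 5.56 at 22 °C and 6.17, 7.04, 6.05 and 5.67 in the cold, and its 12 h series exceeded the 36 h series by 0.69 ± 0.15 (limma adjusted p = 0.00921), though not past the threshold without the 4 h array of the 12 h series (0.58) or the 8 h array of the 36 h series (0.55). AT3G49810 rose at 22 °C: it went from 6.30 to 7.48, 8.68 and 8.94 after 0.5, 2 and 4 h of cordycepin, a slope over the last 3 arrays of 0.40 ± 0.07 per h (adjusted p = 0.00123), and of 0.13, which did not pass, without the 0.5 h array.

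Regulators of transcription, light and the clock numbered 7 by the same kind of count. Of these, 2 were higher in the 12 h than in the 36 h series, beside 11.1% of all tested. With reference-gene centring 2 were higher as well, beside 3.48%. AT2G33710, an AP2/ERF-type transcription factor, was 4.64-fold higher at 12 h, with 4.91 at 22 °C and 5.26, 7.12, 4.97 and 5.32 in the cold. With cordycepin its 12 h series stood at 5.05, 5.11 and 5.12 and its 36 h series at 5.94, 5.18 and 5.39, so its 12 h peak was on 1 array only, and this probe set was also the dimmest member on its second brightest array. The trihelix factor gene AT2G38250 had 6.59 at 22 °C and 7.54, 7.85, 7.41 and 7.07, and its 12 h series exceeded the 36 h series by 0.60 ± 0.11 (limma adjusted p = 0.00401). AT5G46910, of the jumonji family of histone demethylases, had 5.05 and 5.55, 6.45, 6.19 and 5.54, with a difference of 0.67 ± 0.10 (adjusted p = 0.0013). TIC (TIME FOR COFFEE), a regulator of the circadian clock, had 8.95 at 22 °C and 8.81, 9.96, 9.91 and 9.26 in the cold, and its difference of 0.30 ± 0.10 did not pass (adjusted p = 0.0603). FHL, which helps bring phytochrome A into the nucleus, had 5.91 and 6.02, 6.96, 6.23 and 6.00, and its difference of 0.15 ± 0.14 did not pass either (adjusted p = 0.498).

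Kinases, a phosphatase and calcium-related genes made up 7 members. The 12 h series was higher than the 36 h series for 1 of them, beside 11.1% of all tested. The 6 h series was higher than the 36 h series for 4, beside 28.1%. With reference-gene centring these counts were 0 and 2, beside 3.48% and 10.5%. AT1G25390, a protein kinase gene, was the one that passed, at 0.37 ± 0.09 (limma adjusted p = 0.0185), and it did not pass with any 1 of 3 arrays left out (0.28 to 0.39) or with that centring (0.24). AT3G25600, which encodes a calmodulin-like calcium sensor, had 8.26 at 22 °C and 9.62, 9.90, 8.59 and 8.70 in the cold, and with cordycepin 9.77, 9.41 and 9.26 for the 6 h series against 8.97, 8.46 and 8.41 for the 36 h series, a 6 h minus 36 h difference of 0.87 ± 0.12 (adjusted p = 0.000229). AT5G17850, a cation/calcium exchanger gene, had 7.40 at 22 °C and 7.89, 9.23, 8.38 and 7.85, and its 6 h series exceeded the 36 h series by 0.74 ± 0.12 (adjusted p = 0.000582). The kinase gene AT1G76360 was 3.80-fold higher at 12 h, with 4.89 at 22 °C and 4.74, 6.82, 6.01 and 5.28, and neither its 12 h nor its 6 h series passed against the 36 h series. OCT4, an organic cation and carnitine transporter, was 3.84-fold higher at 12 h, with 5.36 at 22 °C and 5.22, 7.30, 6.81 and 5.75, and its 6 h series exceeded the 36 h series by 0.63 ± 0.24 (adjusted p = 0.0438), which did not pass with any 1 of 7 arrays left out (0.31 to 0.73) or with reference-gene centring (0.45). AZG1, a purine transporter, had 6.45 at 22 °C and 6.09, 7.54, 7.14 and 6.73, and its 6 h minus 36 h difference of 0.19 ± 0.12 did not pass (adjusted p = 0.214).

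The remaining named members include enzymes of lipid and plastid metabolism. AT1G02660, a class 3 lipase gene, was 3.94-fold higher at 12 h, with 5.29 at 22 °C and 5.15, 7.26, 5.86 and 5.50 in the cold, and its 12 h series exceeded the 36 h series by 0.56 ± 0.14 (limma adjusted p = 0.016), which did not pass with any 1 of 3 arrays left out (0.41 to 0.56) or with reference-gene centring (0.43). SUFE2, a plastid protein that activates the sulfur transfer step of iron-sulfur cluster assembly, had 7.47 at 22 °C and 7.25, 8.66, 8.88 and 7.17, and no series difference from 36 h passed for its 12 h or 6 h series. The plastid-encoded photosystem II gene psbN had 6.22 and 7.26, 7.50, 6.68 and 6.68, and it rose at 22 °C with cordycepin, from 6.38 to 7.28 and 7.71 on the 0.5, 2 and 4 h arrays (limma slope 0.37 ± 0.07 per h, adjusted p = 0.00184; 0.22, which did not pass, without the 0.5 h array). The Rab GTPase-activating protein genes AT5G52580 and AT3G49350, whose products act in membrane traffic, differed in timing: AT5G52580 had 6.41 and 7.72, 7.65, 7.32 and 6.82, already high at 6 h, and AT3G49350 had 7.93 and 7.85, 8.94, 8.33 and 7.75.

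Of the cold and clock genes fixed for comparison, the 4 found by name among the tested probe sets did not meet the rule. CBF1, CBF2, CBF3, ZAT12, CCA1, LHY and TOC1 were fixed as well but were not found there, so nothing is said of them. STZ, a zinc finger repressor of the early cold response, lay 2.99, 3.61, 2.58 and 2.73 log2 units above 22 °C at 6, 12, 24 and 36 h. COR15A, a chloroplast protein that protects membranes on freezing, lay 0.87, 5.49, 6.50 and 6.32 above it, and the dehydrin gene COR47 5.44, 7.85, 8.33 and 7.94. The clock gene GI lay at −0.17, 0.91, 1.92 and 1.65.

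The arrays with cordycepin also gave the members' relative slopes. From 0 to 0.5 h of cordycepin at 22 °C the members went down by a median of −0.52 log2 units. At least 1 lower were 31 (21.2%), beside 6.41% of all tested. Of the other 972 probe sets that stood at least 1 above 22 °C at 12 h, 15.2% were at least 1 lower. That step includes the 22 °C array used by the rule. From 0.5 to 4 h at 22 °C the median slope was 0.08 log2 units per h. In that span 42 members (28.8%) rose, beside 16.4% of all tested, and 24 (16.4%) fell, beside 32.1% (limma, 15 arrays with cordycepin, 1 line per series, 5 residual degrees of freedom). This was largely shared with the other 972 probe sets, of which 23.6% rose and 17.4% fell. On the 0.5 h array the members' median log2 intensity was 5.94, near the intensity limit, against 7.62 over all tested. Whether this left members less room to fall, also in the cold minus 22 °C counts below, was not tested. Without the 0.5 h array 22 rose and 8 fell, beside 3.73% and 9.01% of all tested. With the arrays centred on reference genes, which moved the median slope of all tested probe sets from −0.04 to 0.09, 79 members rose, beside 40.3%, and 11 fell, beside 12.7%. With all 20 arrays, the members' balance turned: 20 rose, beside 23.7%, and 32 fell, beside 38.0%, with a median slope of −0.03.

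In the cold the mean slope had a median of −0.05 log2 units per h, and 83 members (56.8%) fell, beside 14.2% of all tested, while 13 rose, beside 13.3%. The fall was shared with the other 972 probe sets that stood at least 1 above 22 °C at 12 h, of which 453 (46.6%) fell. The count depends on single arrays. It was 37 and 53 without the 4 h and the 12 h array of the 6 h series, 52 and 43 without those of the 12 h series, and 33 without the 4 h array of the 36 h series, while the share of all tested that fell went down from 14.2% to between 4.02% and 6.00%. Without the 4 h array of the 6, 12 or 36 h series 1 member rose, beside 0.91%, 1.90% and 1.06%. Without the 12 h array of the 6 h and the 12 h series 2 and 6 rose, beside 2.64% and 1.84%. Without that of the 24 h series 4 rose, beside 3.88%, and without that of the 36 h series 8, beside 6.63%. With all 20 arrays or with reference-gene centring 8 rose as well, beside 21.9% and 1.88%. Of the 83, 18 rose at 22 °C, 17 fell there and 48 did neither. The slope was more negative or less positive in the cold than at 22 °C for 49 members (33.6%), beside 14.4% of all tested. It was less negative or more positive for 18 (12.3%), beside 30.6%. Of the other 972 probe sets these shares were 28.7% and 13.3%. Without the 0.5 h array of the 22 °C series the members' counts were 24 and 5, beside 3.74% and 8.44% of all tested, and without its 4 h array the first was 26, beside 6.23%. With reference-gene centring they were 99, beside 42.8% of all tested, and 6, beside 10.5%. With all 20 arrays, which include those of the rule, they were 24 and 25, beside 21.6% and 36.7%.

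**Figure D3:**
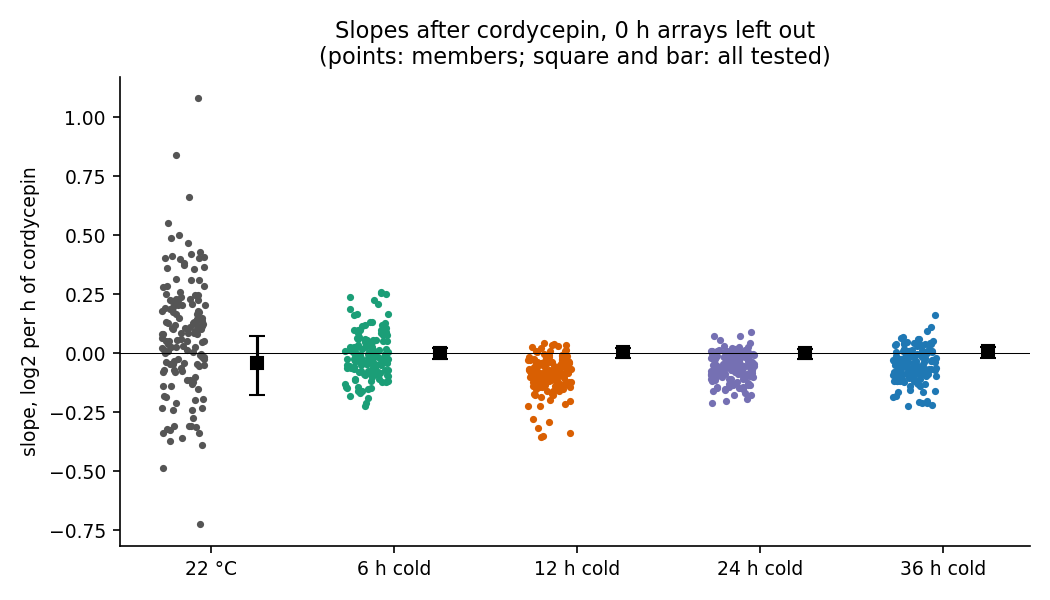
Slope in log2 units per h of cordycepin (y axis) of each member in each series (x axis), fitted without the arrays at 0 h, beside the median and quartiles of all tested probe sets (black). The members' medians are 0.08 at 22 °C and −0.02, −0.08, −0.05 and −0.05 for the 6, 12, 24 and 36 h series, and 134 of 146 lie below 0 for the 12 h series.

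The median slope of the members was −0.02 per h for the 6 h series, −0.08 for the 12 h series and −0.05 in both later series. In the 12 h series 134 members had a slope below 0, beside 44.3% of all tested, and 31 passed the test there, beside 2.2%. The slope of the 12 h series minus the mean of the other cold slopes was below 0 for 131 members, with a median of −0.04. No member passed the limma test of that difference, beside 0.0% of all tested. At an unadjusted p under 0.05, 34 members were lower and 0 higher, against 269 lower and 215 higher among all tested. With all 20 arrays, including those that chose the members, 23 were lower, beside 1.09% of all tested. Members had to be high on the 12 h array without cordycepin, so their choice tilts this count, and nothing is drawn from it.

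In the 6 h series most members stood higher, relative to other transcripts, after cordycepin than before it. Between 0 and 4 h of cordycepin the median difference was 0.53 log2 units: 124 members were higher and 22 lower, and 20 (13.7%) were at least 1 higher, beside 1.74% of all tested. The other 972 probe sets that stood at least 1 above 22 °C at 12 h had a median of 0.54, with 188 (19.3%) at least 1 higher. Neither difference of the rule used the 0 h or the 4 h array of the 6 h series, though both counted for the intensity limit. From 4 to 12 h of cordycepin the median member went down by −0.66 for the 12 h series, where 37 members were at least 1 lower, beside 2.42% of all tested. In the 24 h series 22 were at least 1 lower, beside 1.5%, and in the 36 h series 16, beside 2.97%. Cells at 24 h in the cold without cordycepin can be set beside cells of the 12 h series with 12 h of cordycepin, which had also spent 24 h in the cold. The former were higher by a median of 0.54, and 44 members (30.1%) were at least 1 higher, beside 4.67% of all tested. The other 972 probe sets shared this, with a median of 0.49 and 24.5% at least 1 higher.

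**Figure D4:**
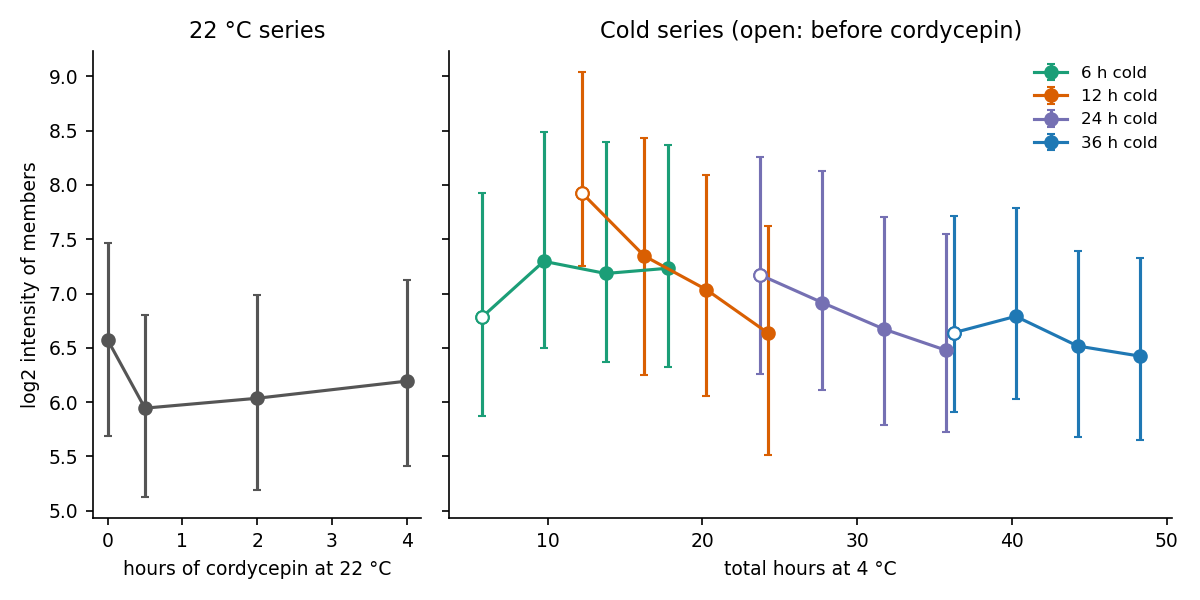
Median log2 intensity of the 146 members (points) with quartiles (bars) at 22 °C against hours of cordycepin (left) and in the 4 cold series against total hours at 4 °C (right; open points are arrays without cordycepin). The 6 h series goes from 6.78 to 7.30 and ends at 7.23, and the 12 h series goes from 7.92 to 6.64.

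Over all members the slopes at 22 °C ran from −0.72 to 1.08, both ends being unnamed probe sets. The named members with the most negative slopes there were AT5G55050, AT1G21000, AT1G79660, AT1G06450, AT1G72070 and AT3G06150. AT1G21000, a PLATZ-type zinc-binding transcription factor gene, went from 8.42 to 6.61, 5.71 and 5.40 after 0.5, 2 and 4 h of cordycepin at 22 °C, a slope of −0.34 ± 0.06 per h over the last 3 arrays (limma adjusted p = 0.00201). In the 6 h series it stood at 9.32, 9.11, 8.86 and 8.87 after 0, 4, 8 and 12 h, and its mean cold slope was −0.05 ± 0.01 (adjusted p = 0.0176), which did not pass with any 1 of 7 arrays left out (−0.07 to −0.04). Its fall per hour was thus smaller in the cold, by 0.28 ± 0.07 (adjusted p = 0.00642). Without the 0.5 h array at 22 °C its slope there was −0.16 and the difference 0.10, neither past the threshold, and with reference-gene centring the difference was 0.13 and did not pass. AT5G55050 fell by 0.36 ± 0.06 per h at 22 °C (adjusted p = 0.00117), and its mean cold slope of −0.03 ± 0.01 did not pass (adjusted p = 0.179). Without the 0.5 h array at 22 °C its slope there was −0.18 and did not pass.

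AT5G09570, AT5G46910, AT2G38740, AT2G43535, AT1G13750 and AT3G49810 had the most positive slopes at 22 °C among named members. AT5G09570, of the twin CX9C family of small mitochondrial proteins, went from 5.69 to 5.63, 6.31 and 7.92 after 0.5, 2 and 4 h of cordycepin at 22 °C, a slope of 0.66 ± 0.07 per h (limma adjusted p = 7.71e-05), or 0.58 above its mean cold slope. Its 6 h series stood at 5.82, 5.79, 6.75 and 7.84 after 0, 4, 8 and 12 h, and its 12 h series at 7.79, 5.75, 6.14 and 5.78. It was high late with cordycepin at 22 °C, late with cordycepin in the 6 h series and at 12 h of cold without cordycepin. AT1G13750, a purple acid phosphatase gene, had the same high arrays, with 6.24, 6.48, 6.69 and 7.86 at 22 °C, 6.04, 6.11, 7.29 and 8.02 for the 6 h series and 7.73, 6.06, 6.16 and 5.84 for the 12 h series. AT2G38740, of the HAD-type hydrolase superfamily, had 7.83, 8.01, 8.51 and 9.44 at 22 °C, 7.97, 8.06, 8.75 and 9.37 for the 6 h series and 9.07, 7.64, 8.00 and 7.85 for the 12 h series. AT2G43535, of the defensin-like family of small cysteine-rich proteins, had 9.10, 8.89, 9.52 and 10.31 at 22 °C, 9.41, 9.47, 10.16 and 10.99 for the 6 h series and 10.74, 9.30, 9.46 and 9.37 for the 12 h series. The slope at 22 °C exceeded the mean cold slope in all 4 genes, by 0.33 to 0.58 per h. Without the 4 h array at 22 °C the cold minus 22 °C slope was −0.37 for AT5G09570, −0.27 for AT2G38740 and −0.07 for AT1G13750, and none of these 3 passed.

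**Figure D5:**
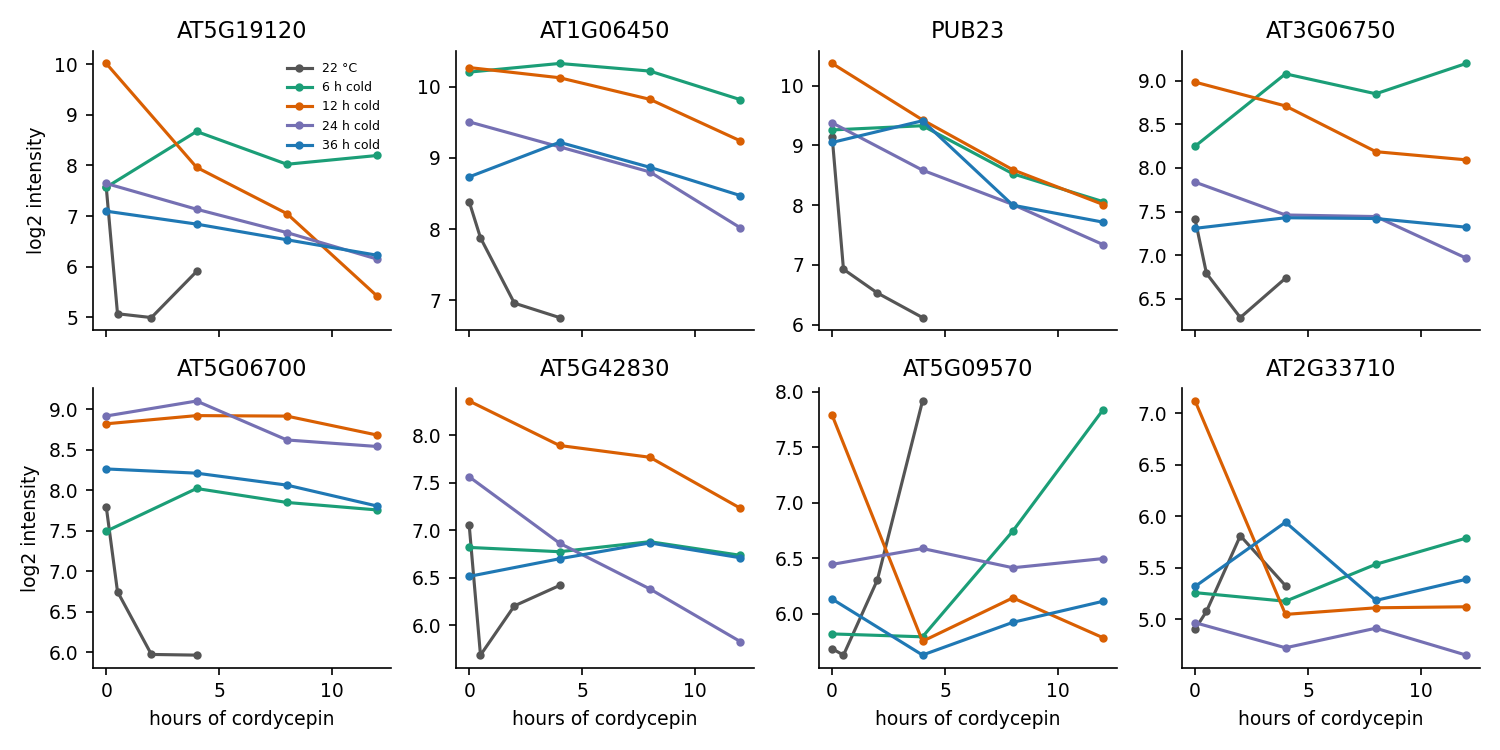
Log2 intensity (y axis) of 8 members on all 20 arrays against hours of cordycepin (x axis), 1 line per series. PUB23 is lower at each later hour of cordycepin from 4 h on in the cold, AT5G06700 and AT5G42830 keep the 12 h series above the 36 h series, AT5G09570 is high late at 22 °C and in the 6 h series, and AT2G33710 is high on the 12 h array only.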

How the data were processed

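Total RNA of T87 cells was hybridised to 20 ATH1 arrays. The deposited intensity per probe set is on a linear scale and was summarised by the authors with RMA in affy, per the submitters' processing notes; versions and the genome build are not given in the sources used here. Log2 was taken of the deposited intensity. Array medians lay between 50.3 and 68.6. Precision is set by how few arrays there are. Probe sets were named from the platform annotation where it gives exactly 1 gene.

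The members and lists were chosen with earlier results of these data known. Series levels (12 arrays with cordycepin in the cold) and slopes (15 arrays with cordycepin) were tested with limma 3.58.1 (lmFit, eBayes with trend) in R 4.3.3, two-sided, with Benjamini-Hochberg adjustment over 12801 probe sets and a threshold of 0.05; an adjusted p in the text is from these fits and ± is a standard error. Arrays at 0 h were left out of the slopes because the differences of the rule used 3 of them. Tables and plots used Python 3.11.15, numpy 2.4.6, pandas 2.3.3 and matplotlib 3.10.9. On simulated data of 12801 probe sets, the 12 h minus 36 h fit recovered 66% of 100 changes of 0.5 log2 units and 96% of 100 changes of 1, with 5 false calls. The 22 °C slope fit recovered 52% of 100 slopes of 0.25 per h and 94% of 100 slopes of 0.5, with 4 false calls.

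Named genes are, among members with 1 gene, the 12 with the largest 12 h difference, the 10 with the largest called 12 h minus 36 h difference each way, the 6 steepest called slopes each way at 22 °C, up to 4 per list, those beside each limit, the 6 narrowest and 6 broadest peaks, and STZ, COR15A, COR47 and GI; members named for their role were chosen after their values were seen. The planned search of promoters was not made, since no promoter sequence was used here. Alternatives were reference-gene centring, no filter, no variance trend, the brightest probe set per gene, 1 slope per series in the level fit, all 20 arrays in the slope fit, a stricter rule (1.5 at 12 h and 0.25 at 36 h), the rule on the arrays with 4 h of cordycepin, and each array left out.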

Additional observations from a re-analysis of the deposited data

Results flagged for a closer look

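The slope after cordycepin differed between the cold and 22 °C by a limma test of the difference itself for part of the members. It was less negative or more positive in the cold for 18 (12.3%), beside 30.6% of all tested. It was more negative or less positive for 49 (33.6%), beside 14.4%. Of the other 972 probe sets at least 1 above 22 °C at 12 h, these shares were 13.3% and 28.7%. Among the named members with the steepest slopes at 22 °C, the cold minus 22 °C slope, in log2 units per h, was 0.33 for AT5G55050, 0.28 for AT1G21000, 0.22 for AT1G79660, 0.21 for AT1G06450, 0.25 for AT1G72070 and 0.25 for AT3G06150. It was −0.58 for AT5G09570, −0.43 for AT5G46910, −0.35 for AT2G38740, −0.34 for AT2G43535, −0.33 for AT1G13750 and −0.33 for AT3G49810. Without the 0.5 h array at 22 °C the difference did not pass for AT5G55050 (0.15), AT1G21000 (0.10), AT1G79660 (0.018), AT1G06450 (−0.00117), AT1G72070 (0.28), AT3G06150 (0.19), AT5G46910 (−0.08) and AT3G49810 (−0.06). Without the 4 h array at 22 °C it did not pass for AT1G72070 (0.22), AT3G06150 (0.33), AT5G09570 (−0.37), AT2G38740 (−0.27) and AT1G13750 (−0.07). With reference-gene centring it did not pass for AT1G21000 (0.13), AT1G79660 (0.07), AT1G06450 (0.06), AT1G72070 (0.11) and AT3G06150 (0.10). These genes were picked for their slope at 22 °C, which enters the difference. The 22 °C slope rests on 3 arrays from 0.5 to 4 h of cordycepin and each cold slope on 3 arrays from 4 to 12 h.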

How the results depend on the processing

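No paired analysis was possible because every condition has 1 array and the labels carry no replicate numbers. With 1 array left out at a time, the members higher in the 12 h than in the 36 h series numbered 36 to 61 (52 with all), lower in the 12 h than in the 6 h series 37 to 69 (67), higher in the 12 h than in the 24 h series 29 to 54 (51), in the 24 h than in the 36 h series 7 to 25 (16) and in the 6 h than in the 36 h series 82 to 106 (99). Over all tested, the shares ran in that order from 4.69% to 13.1%, 9.57% to 19.4%, 3.05% to 13.1%, 0.37% to 6.11% and 21.4% to 28.8%. Likewise 22 to 51 members rose (42) and 8 to 27 fell (24) at 22 °C, beside 3.73% to 18.7% and 9.01% to 36.1% of all tested. In the cold 33 to 97 fell (83), beside 4.02% to 18.1%. The slope was higher in the cold than at 22 °C for 5 to 21 (18), beside 8.44% to 35.2%, and lower for 24 to 61 (49), beside 3.74% to 16.8%. A lower slope in the 12 h series than in the others was found for 0 to 0. With the brightest probe set per gene, which keeps only named members, those counts were 26, 34, 28, 4 and 47 for the levels and, for the slopes, 9 falling at 22 °C, 42 falling in the cold, 8 higher and 30 lower in the cold. The stricter rule, with 27 members, gave 15, 17, 11, 7 and 24 for the levels. The shares of all tested stayed at 11.1%, 17.8%, 10.1%, 2.53% and 28.1%. That rule gave 8 rising and 5 falling at 22 °C, beside 16.4% and 32.1%, and 12 falling in the cold, beside 14.2%. The slope in the cold was higher for 4 and lower for 7, beside 30.6% and 14.4%. Reference-gene centring lowered the level counts, in the same order, to 40, 45, 35, 8 and 69. The shares of all tested were then 3.48%, 7.34%, 4.30%, 0.41% and 10.5%. At 22 °C 79 rose and 11 fell, beside 40.3% and 12.7%, and in the cold 97 fell, beside 19.1%. The slope in the cold was higher for 6 and lower for 99, beside 10.5% and 42.8%. Medians before cordycepin were 1.54, 1.01 and 0.66 at 12, 24 and 36 h. The centring moved the median over all tested probe sets from 0.02 to −0.11 for 12 h minus 36 h, from 0.03 to −0.15 for 6 h minus 36 h, from −0.04 to 0.09 for the 22 °C slope and from 0.04 to −0.11 for cold minus 22 °C. One slope per series gave 42 members higher in the 24 h than in the 36 h series, beside 4.90% of all tested. All 20 arrays gave 20 rising and 32 falling at 22 °C, beside 23.7% and 38.0%. They gave 24 with a lower and 25 with a higher slope in the cold, beside 21.6% and 36.7%. For 23 the slope was lower in the 12 h series than in the others, beside 1.09%. The fits on all 20 arrays hold those that chose the members, which tilts these counts. The rule on the arrays with 4 h of cordycepin chose 32.

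For the named genes, 2894 values kept their side of the threshold, 382 passed no longer and 7 changed sign. With all 20 arrays the 22 °C slope of AT5G19120 was −0.22 and that of AT5G42830 −0.0296, and the cold minus 22 °C slope of AT5G19120 was 0.0857. With 1 array left out, the 22 °C slope of AT5G19120 ran from −0.0501 (no 4 h array at 22 °C) to 0.45, and the cold minus 22 °C slope from −0.00117 to 0.51 for AT1G06450 and from −0.0418 to 0.47 for AT5G06700 (both lowest with no 0.5 h array at 22 °C) and from −0.50 to 0.0103 for AT5G57610 (highest with no 4 h array at 22 °C). The cause of these changes was not tested. Precision is limited by 1 array per condition, and for dim members such as AT2G33710 by an intensity close to the limit.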
